A study of Mus musculus with 11 samples.

Results

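The structural genes of the extracellular matrix were examined in the gonadal white adipose tissue (WAT) of 11 male C57BL/6J mice by RNA sequencing. They are the collagens, laminins, nidogens, fibrillins, fibulins, emilins and thrombospondins, chosen by the form of the gene symbol, together with Fn1, Eln, Sparc, Bgn, Dcn, Lum, Postn, Tnc and Tnxb. Of 79 annotated gene names of this form, 58 were among the 12787 genes of the deposited table, and these fell into 8 fibrillar collagens, 18 basement membrane genes and 32 other matrix genes. The other 21 names were not listed, in a table from which the authors had removed low transcripts. They were Col10a1, Col11a1, Col13a1, Col17a1, Col19a1, Col22a1, Col24a1, Col25a1, Col26a1, Col2a1, Col4a3, Col4a4, Col6a4, Col8a2, Col9a1, Col9a2, Col9a3, Emilin3, Fbn2, Lama1 and Thbs4.

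Both groups ate the same 60% high fat diet (HFD) for 20 weeks. The 5 HFD control mice received vehicle, and the 6 IMC-treated mice received iodomethylcholine (IMC) at 0.06% w/w in the same diet. IMC is a small molecule that inactivates CutC, the choline trimethylamine lyase of gut bacteria. The comparison asks how the RNA of fat tissue differed when that enzyme was inhibited. Each mouse gave 1 library of whole tissue, 1 further control library was left out by the submitters after quality control, and no batch was given in the sources used here. The study states a start at 6 weeks of age for a 20 week feeding of HFD with or without IMC, without saying whether these are the same mice. It housed mice 5 to a cage with 2 to 4 cages per condition, and which of these mice shared a cage was not given in the sources used here.

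The matrix of adipose tissue has a pericellular and an interstitial layer. Each adipocyte and each capillary is wrapped in a basement membrane, a thin sheet in which a laminin network and a type IV collagen network are linked by nidogens and by perlecan. Laminins are trimers of an alpha, a beta and a gamma chain, and a chain enters a trimer only with suitable partners. Between the cells lie fibrils of collagens I, III and V, made mainly by fibroblasts, with type VI collagen filaments, elastic fibres, small proteoglycans and adhesive glycoproteins around them. In obesity the interstitial matrix of fat is known to accumulate, a change described as fibrosis.

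The stretches of DNA just upstream of a listed transcription start are shown for a few of the genes called in each direction. RefSeq promoter windows of build GRCm38.p6, which run from 250 bases before to 50 bases after a start, were found for 43 of the 58 genes. The 120 bases before the most upstream listed start are printed 5′ to 3′ on the strand of the gene, and capitals mark 3 short motifs on either strand: the GC box GGGCGG, the CCAAT box CCAAT and the TATA box TATAAA. Lamb3 (laminin beta 3; chr1:193301874-193301993, plus strand), Lama5 (laminin alpha 5; chr2:180225860-180225979, minus strand) and Sparc (chr11:55420081-55420200, minus strand) were higher in the IMC-treated mice. Col1a2 (collagen I alpha 2; chr6:4505498-4505617, plus strand) and Fbln7 (fibulin 7; chr2:128863812-128863931, plus strand) were lower. The listed starts do not all match the gene coordinates. The Lamb3 stretch lies inside its gene (chr1:193294353-193343878). The Lama5 and Fbln7 stretches cross the outer starts of their genes (chr2:180225904 and chr2:128863865).
Lamb3: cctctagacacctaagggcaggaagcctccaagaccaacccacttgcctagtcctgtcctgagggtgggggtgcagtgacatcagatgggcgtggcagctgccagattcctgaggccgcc
Lama5: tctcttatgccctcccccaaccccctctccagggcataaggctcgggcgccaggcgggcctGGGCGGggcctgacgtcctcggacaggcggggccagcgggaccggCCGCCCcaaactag
Sparc: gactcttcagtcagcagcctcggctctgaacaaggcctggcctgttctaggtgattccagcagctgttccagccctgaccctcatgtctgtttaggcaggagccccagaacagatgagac
Col1a2: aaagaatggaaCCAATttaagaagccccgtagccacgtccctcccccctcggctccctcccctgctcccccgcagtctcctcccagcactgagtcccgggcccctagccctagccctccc
Fbln7: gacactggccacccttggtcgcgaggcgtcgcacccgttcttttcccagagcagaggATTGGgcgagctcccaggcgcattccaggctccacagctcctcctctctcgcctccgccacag

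Lama5 held the GC box on both strands, Col1a2 and Fbln7 each held a CCAAT box, and the 120 bases of Lamb3 and Sparc held none of these letters. Over the full 300-base windows, the GC box was found in 60.8% of the 51 starts of matrix genes and in 35.7% of all 32851 starts in the reference. The CCAAT box was found in 31.4% and 37.4%, and the TATA box in 11.8% and 13.6%. The reference starts were not limited to genes listed in this tissue, whereas the matrix genes all were listed. Among matrix genes with a window, the GC box was in 8 of the 12 that were higher with IMC, 7 of the 11 that were lower and 14 of the 20 that did not pass the test.

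Reads assigned to listed genes numbered from 22320022 to 25155366 per library, of which the matrix genes took between 3.12% and 3.78%. The least covered gene, Col11a2, had 26 reads in its lowest library, the median matrix gene averaged 4108 reads, and Sparc averaged 118562. Levels are given as log2 CPM, the log2 of read counts scaled to a common library size by the upper quartile, on which a difference of 1 is a doubling. Groups were compared with limma over all listed genes. A gene is called higher or lower where the Benjamini-Hochberg adjusted p is under 0.05.

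IMC-treated mice differed from HFD control mice in 30 of the 58 matrix genes, 16 higher and 14 lower. This was 51.7% of the matrix genes, where 40.9% of all listed genes were called. Higher calls made up 20% and lower calls 21.0% of all listed genes. The median log2 fold change was 0.05 over the matrix genes and -0.03 over all genes. The basement membrane genes had 9 higher calls of 18 and no lower call by limma, with a median log2 fold change of 0.23. At an unadjusted p under 0.05 there were 2 lower genes (Lama2 and Lamc3), and there were 0 with voom or the adjusted exact test. The 8 fibrillar collagens had 2 higher and 3 lower calls, and the 32 other genes had 5 higher and 11 lower. In 17 of the 58 genes every mouse of one group lay above every mouse of the other, 12 higher and 5 lower with IMC, and 23.1% of all listed genes had no such overlap. In whole tissue, fewer cells of a type and less RNA per cell cannot be told apart.

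**Figure D1:**
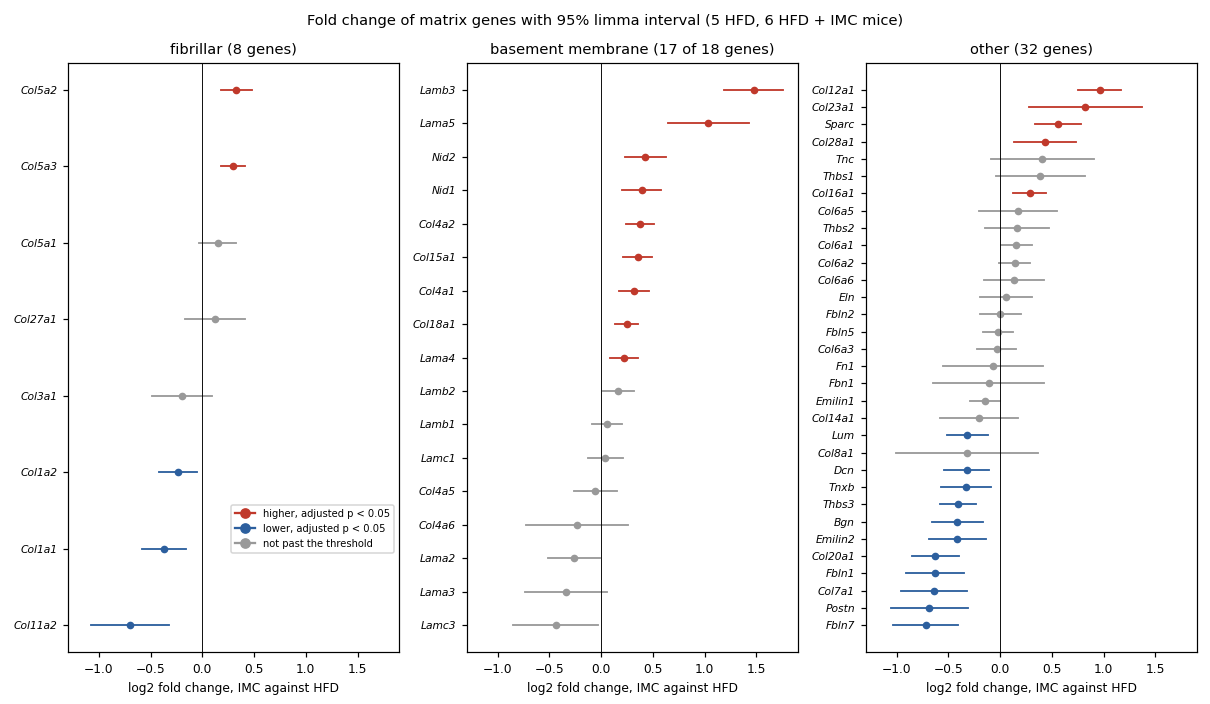
Log2 fold change of IMC-treated against HFD control mice (x axis) for 57 of the 58 matrix genes in 3 panels, with points for the estimate and bars for the 95% limma interval; red and blue mark genes called higher and lower. Lamb3 stands at 1.47 at the top of the basement membrane panel, where no gene is blue, and Fbln7 at -0.72 at the bottom of the other genes.

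Cell type markers moved between the groups at the same time. All 12 adipocyte markers were higher with IMC, and their summed level ran from 10690 to 15560 CPM in HFD control mice and from 21400 to 25630 CPM in IMC-treated mice. Macrophage markers were lower in 8 of 10, from 11900 to 16060 CPM in HFD control mice and from 6317 to 10020 CPM in IMC-treated mice. Of 14 fibroblast and adipose progenitor markers, 8 were lower and none higher, with a median log2 fold change of -0.35. Their sums overlapped (8067 to 9194 against 6713 to 10540 CPM), but Gsn alone made up 72.7% of the HFD control sum and was not called (0.17 ± 0.14), and without it the sums did not overlap (2288 to 2581 against 1668 to 2068 CPM). Pericyte and smooth muscle markers were higher in 5 of 10 (312.9 to 476.4 against 492.1 to 685 CPM, and with overlap at 230 to 340.5 against 321.2 to 521.3 CPM without Acta2). Endothelial markers were higher in 3 of 12 (587.3 to 801.9 against 679.3 to 966.7 CPM). The 7 listed mast cell markers were all lower (506.6 to 1157 against 161.3 to 325.5 CPM), and 5 of 6 listed skeletal muscle markers were higher at low levels (24.83 to 37.2 against 80.26 to 119.6 CPM). Another 6 skeletal muscle markers, Myh1, Myh4, Ckm, Tnnt3, Mylpf and Ttn, were not listed. Mesothelial markers were lower in 2 of 6 (239.8 to 330.3 against 110.3 to 269 CPM), with Msln, Krt8, Krt18 and Muc16 not listed. A single epithelial marker, Krt7, and a single T and B cell marker, Cd2, were listed and neither was called. Krt7 ran from 7.08 to 11.6 CPM in HFD control mice and from 3.68 to 10.3 CPM in IMC-treated mice, and the defining epithelial genes Epcam, Cdh1, Krt5 and Krt14 were not listed. Adipocyte markers were thus abundant in every mouse, as the tissue label has it. The part that the makeup of cell types had in the matrix results below was not tested.

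Of the 3 subsets, only the basement membrane genes had calls in 1 direction. This subset was taken as the laminins, collagen IV, the nidogens, Col15a1 and Col18a1. Smaller families among the other genes, such as the small proteoglycans, also had calls in 1 direction. Among the laminins, 3 of 10 were called higher and none lower. That is 30% called, beside 40.9% called and 20% called higher among all listed genes. Lamb3 encodes a laminin beta chain that joins the alpha chain Lama3 and is best known from the attachment of skin epithelium. Its levels in the HFD control mice were 3.05, 3.24, 3.20, 2.81 and 3.64 log2 CPM, and the IMC-treated mice ran from 4.46 to 4.98 with a median of 4.61. Every IMC-treated mouse lay above every control. Lamb3 had the highest log2 fold change of the 58 genes, at 1.47 ± 0.13 (SE), or 2.78-fold (adjusted p = 2.67e-05 by limma, exact permutation p = 0.00216, the smallest that 462 splits of the mice can give). It remained a gene of low level, with 1.81 CPM per kilobase of exon in HFD control mice and 4.98 in IMC-treated mice.

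Lama5, the alpha 5 chain of the laminins of mature vessels and many epithelia, was the second laminin to rise. HFD control mice had 4.71, 5.20, 5.16, 5.23 and 5.52 log2 CPM, and IMC-treated mice 5.83 to 6.75 with a median of 6.03. The groups did not overlap, and IMC mice 2 and 6 stood well above the other treated mice. The log2 fold change was 1.03 ± 0.18 (2.05-fold, adjusted p = 0.000725 by limma). Lama4, the alpha chain of the laminins of endothelium, muscle and adipocytes, differed less. Its control levels were 7.78, 7.98, 8.03, 7.91 and 7.87 log2 CPM against 7.99 to 8.26 (median 8.13) with IMC. A single pair of mice overlapped at the edge of the groups, and the log2 fold change was 0.22 ± 0.06 (adjusted p = 0.0152 by limma).

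The other 7 laminin chains did not pass the test. Lamc1 and Lamb1, the gamma and beta chains shared by most laminins, had log2 fold changes of 0.04 (95% interval -0.13 to 0.21) and 0.06 (-0.09 to 0.20). Lamb2, found at vessels and synapses, had 0.16 (0.01 to 0.32, adjusted p = 0.078 by limma). Lama2, the alpha chain of muscle laminin, had -0.26 (adjusted p = 0.09) and Lamc3, a rarer gamma chain, -0.44 (adjusted p = 0.081 by limma). Of the exon bases of Lamc3, 5.6% overlap another annotated gene on the opposite strand. Lamc3 was called lower without IMC mouse 2 (adjusted p = 0.027) or IMC mouse 3 (adjusted p = 0.041 by limma), and Lama2 without IMC mouse 5 (adjusted p = 0.0128 by limma), so the count of lower basement membrane genes was then 1. Lama3, the alpha chain that joins Lamb3, had -0.34 ± 0.18. By length, the laminin chains of this tissue ran from 79.1 CPM per kilobase for Lamc1 through 50.5 for Lamb1, 40.0 for Lama4 and 33.4 for Lamb2 to 0.759 for Lama3 in HFD control mice.

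Type IV collagen is the network collagen of every basement membrane, and its common trimer holds 2 chains from Col4a1 and 1 from Col4a2. Col4a1 had 10.91, 10.96, 10.92, 10.89 and 10.94 log2 CPM in the HFD control mice and 11.14 to 11.35 (median 11.25) in the IMC-treated mice. Col4a2 had 10.31, 10.44, 10.37, 10.33 and 10.46 against 10.65 to 10.86 (median 10.75). Both genes were apart in every mouse, and the controls of Col4a1 lay close together (SD 0.03). The log2 fold changes were 0.32 ± 0.07 for Col4a1 (1.25-fold, adjusted p = 0.00224 by limma) and 0.37 ± 0.06 for Col4a2 (1.29-fold, adjusted p = 0.000646 by limma). The minor chains Col4a5 and Col4a6 were not called, with -0.06 ± 0.10 and -0.23 ± 0.23.

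Nidogens bridge the laminin and collagen IV networks, and both were higher with IMC. Nid2 had 6.49, 6.53, 6.58, 6.69 and 6.81 log2 CPM in the HFD control mice and 6.67 to 7.21 (median 7.10) in the IMC-treated mice. The overlap came from IMC mouse 4 alone, which stood at 6.67 where the other treated mice were at 7.05 or above. Nid2 had a log2 fold change of 0.43 ± 0.09 (adjusted p = 0.00242 by limma), and Nid1, the more abundant of the pair, 0.39 ± 0.09 with no overlap (adjusted p = 0.00326 by limma). Nid1 averaged 9.75 ± 0.14 log2 CPM (SD) in the controls and 10.15 ± 0.16 in the treated mice. Of the exon bases of Nid2, 8.96% overlap the gene Rtraf on the opposite strand.

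Collagens XV and XVIII are basement membrane collagens with proteoglycan side chains, and a fragment of collagen XVIII is known as endostatin. Col15a1 had 9.61, 9.60, 9.60, 9.44 and 9.54 log2 CPM in the HFD control mice and 9.70 to 10.01 (median 9.93) in the IMC-treated mice. Col18a1 had 8.42, 8.43, 8.40, 8.33 and 8.55 against 8.60 to 8.78 (median 8.66). Neither gene overlapped between the groups. Their log2 fold changes were 0.35 ± 0.06 (adjusted p = 0.000997) and 0.25 ± 0.05 (adjusted p = 0.00204 by limma).

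**Figure D2:**
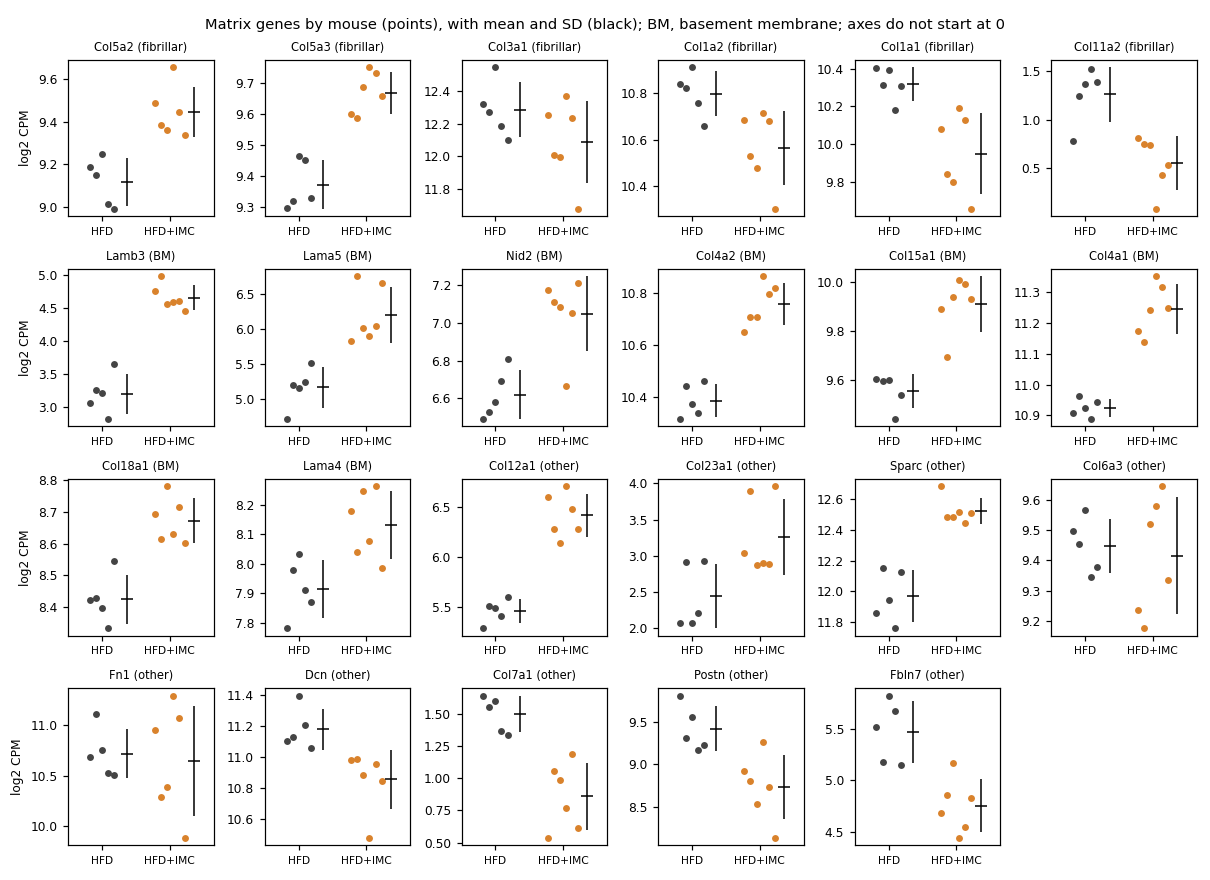
Log2 CPM (y axis, not starting at 0) of 23 matrix genes in each HFD control mouse (grey) and each IMC-treated mouse (orange), with the mean and SD of each group in black. In the panels of Lamb3, Lama5, Col4a1, Col4a2, Col15a1 and Col18a1 every orange point lies above every grey one, while for Col3a1, Col6a3 and Fn1 the groups overlap.

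Fibrillar collagens split by type. Collagen V, a minor partner inside fibrils of collagen I that limits their width, had 2 genes higher with IMC. Col5a2 had 9.19, 9.15, 9.25, 9.01 and 8.99 log2 CPM in the HFD control mice and 9.34 to 9.66 (median 9.41) in the IMC-treated mice. Col5a3 had 9.30, 9.32, 9.46, 9.45 and 9.33 against 9.59 to 9.75 (median 9.67). All treated mice lay above all controls for both genes. The log2 fold changes were 0.33 ± 0.07 (adjusted p = 0.00254) and 0.30 ± 0.05 (adjusted p = 0.00108 by limma), while Col5a1 had 0.15 ± 0.08 and was not called.

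Collagen I, the main fibre of tendon, skin and scar, went the other way. Col1a1 had 10.40, 10.31, 10.40, 10.18 and 10.31 log2 CPM in the HFD control mice and 9.65 to 10.19 (median 9.96) in the IMC-treated mice. Only IMC mouse 4 reached the level of the lowest control. The log2 fold change was -0.37 ± 0.10 (0.773-fold, adjusted p = 0.00864 by limma). Col1a2, its partner in the trimer, had 10.84, 10.82, 10.91, 10.76 and 10.66 in the controls against 10.30 to 10.71 (median 10.61). The lowest control lay below 3 of the treated mice. The log2 fold change was -0.24 ± 0.09 with an adjusted p of 0.043 by limma, close to the threshold, and the call was lost without HFD mouse 1, 2, 3 or 4 or IMC mouse 2, 3 or 6 (adjusted p up to 0.105), under median-of-ratios scaling (adjusted p = 0.0554) and in the exact test (adjusted p = 0.0558).

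Col3a1, the collagen of reticular fibres, was the most abundant collagen here, with 901 CPM per kilobase in HFD control mice against 334 for Col1a2 and 216 for Col1a1. Its levels were 12.32, 12.27, 12.54, 12.19 and 12.10 log2 CPM in the controls and 11.68 to 12.36 (median 12.12) with IMC. The groups overlapped, IMC mouse 6 was the lowest of all, and the log2 fold change of -0.20 (95% interval -0.48 to 0.09) did not pass the test (adjusted p = 0.262 by limma). Col11a2, a cartilage collagen present here at very low counts, had 0.78, 1.24, 1.36, 1.52 and 1.38 against 0.08 to 0.81 (median 0.64). HFD mouse 1 alone fell within the treated range. The log2 fold change was -0.70 ± 0.18 (adjusted p = 0.00683 by limma), and Col27a1 was not called at 0.12 ± 0.13.

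Among the summed levels of the subsets, only that of the basement membrane genes did not overlap between the groups. The 18 basement membrane genes added up to 6965 ± 216 CPM (SD) in the 5 controls and to 8544 ± 393 CPM (SD) in the 6 treated mice, a ratio of 1.23. The lowest treated mouse, at 7994 CPM, lay above the highest control, at 7226 CPM. The fibrillar collagens added up to 9832 ± 839 CPM and 9029 ± 1144 CPM, a ratio of 0.918 with wide overlap. The log2 ratio of the basement membrane sum to the fibrillar sum was -0.49 ± 0.12 in the controls and -0.07 ± 0.16 in the treated mice, with no overlap. The sum over all 58 genes differed little, at 33755 ± 1908 against 35485 ± 2886 CPM. These sums lean on few genes and are given without a test. Of the total over all 58 genes, Sparc took 14.5%, Col3a1 13.5%, Col4a1 6.37% and Dcn 5.98%. Sparc and Dcn enter neither the fibrillar nor the basement membrane sum. The largest part of the fibrillar sum was Col3a1, which was not called. The largest parts of the basement membrane sum were Col4a1 and Col4a2 (4.47% of the total).

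**Figure D3:**
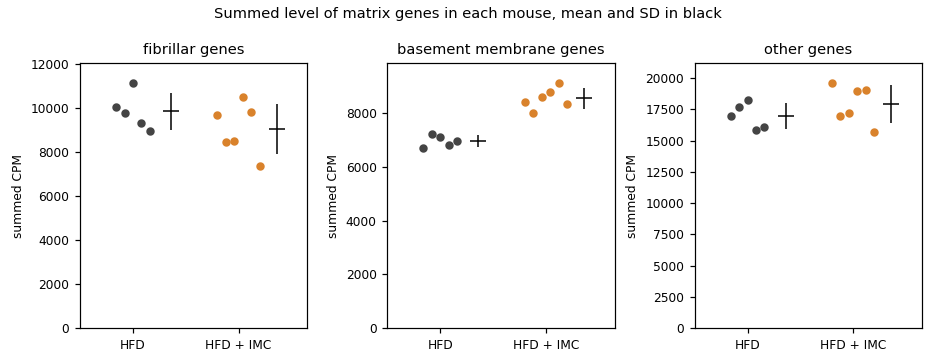
Summed CPM (y axis, from 0) of the fibrillar, basement membrane and other matrix genes in each mouse, with HFD control mice in grey, IMC-treated mice in orange and the mean and SD in black. The basement membrane sums of the 6 treated mice, 7994 to 9128 CPM, lie above the 5 controls, 6691 to 7226 CPM, and the other 2 panels overlap.

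Collagens outside fibrils and basement membranes changed in both directions, with 4 genes higher and 2 lower among 8 outside collagen VI. Col12a1 encodes a collagen that binds along the surface of collagen I fibrils. Its levels were 5.28, 5.51, 5.49, 5.40 and 5.60 log2 CPM in the HFD control mice and 6.14 to 6.72 (median 6.38) in the IMC-treated mice. No mouse overlapped, and the log2 fold change was 0.96 ± 0.10 (1.95-fold, adjusted p = 3.49e-05 by limma). Col16a1, of the same fibril-associated family, was higher by 0.28 ± 0.07, and Col20a1, at a very low level, fell by 0.63 ± 0.11 on the log2 scale (adjusted p = 0.000599 by limma). Col14a1 was not called at -0.21 ± 0.17.

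Col23a1, a collagen that spans the cell membrane, was higher in the IMC-treated mice but uneven within both groups. The controls had 2.07, 2.92, 2.07, 2.21 and 2.92 log2 CPM, and the treated mice 2.88 to 3.96 with a median of 2.97. The 2 high controls lay within the treated range. The log2 fold change of 0.82 ± 0.25 (adjusted p = 0.0197 by limma) lost its call without HFD mouse 1 (adjusted p = 0.053) or HFD mouse 3 (adjusted p = 0.0536), and the exact test gave an adjusted p of 0.0896. Col28a1, a short collagen known from peripheral nerve, was higher by 0.43 ± 0.14, and it too lost its call without HFD mouse 1 (adjusted p = 0.0638) or HFD mouse 3 (adjusted p = 0.0553 by limma). The count of other matrix genes called higher went from 5 to 3 without either of these controls.

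Col7a1, the collagen of the anchoring fibrils of skin, was lower at a very low level. The controls had 1.64, 1.55, 1.60, 1.36 and 1.34 log2 CPM, and the treated mice 0.54 to 1.19 (median 0.88). The groups did not overlap, and the log2 fold change was -0.64 ± 0.15 (adjusted p = 0.0039 by limma). Col8a1, a collagen of vessel walls, was not called at -0.32 ± 0.32 and varied widely in both groups.

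Collagen VI forms beaded filaments around adipocytes, and a fragment of its alpha 3 chain is known as endotrophin. None of its 5 listed genes was called by limma, with 1 (Col6a1) at an unadjusted p under 0.05 and 0 with voom or the adjusted exact test. Without IMC mouse 6, Col6a1 was called higher (adjusted p = 0.0296 by limma). Col6a3 had 9.50, 9.45, 9.56, 9.35 and 9.38 log2 CPM in the HFD control mice and 9.18 to 9.64 (median 9.43) in the IMC-treated mice. The treated mice lay on both sides of the controls, and the log2 fold change was -0.03 (95% interval -0.22 to 0.16, adjusted p = 0.79 by limma). Col6a1 and Col6a2 had 0.16 (0.01 to 0.31) and 0.14 (-0.01 to 0.29), and Col6a5 and Col6a6 had 0.17 ± 0.18 and 0.14 ± 0.13.

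Among the adhesive glycoproteins, Sparc and Postn moved in opposite directions. Sparc, or osteonectin, binds collagen and is needed for its assembly in the matrix, and it had the highest level per length of the 58 genes in both groups (1479 CPM per kilobase in HFD control mice). Its levels were 11.86, 12.15, 11.94, 11.76 and 12.12 log2 CPM in the controls and 12.45 to 12.69 (median 12.50) with IMC. Every treated mouse lay above every control, and the log2 fold change was 0.56 ± 0.10 (1.47-fold, adjusted p = 0.00111 by limma).

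Postn, or periostin, is a glycoprotein of fibrous and injured tissue. The controls had 9.81, 9.31, 9.56, 9.17 and 9.23 log2 CPM and the treated mice 8.14 to 9.26 (median 8.77). IMC mouse 4 alone reached into the control range. Postn fell by 0.68 ± 0.17 on the log2 scale (0.623-fold, adjusted p = 0.00664 by limma). Tnxb, a tenascin that links collagen fibrils, had -0.33 ± 0.11 (adjusted p = 0.0316 by limma), a call that was lost without HFD mouse 3 or 4 or IMC mouse 1, 2 or 6 (adjusted p up to 0.0833) and in the exact test (adjusted p = 0.0928).

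Fn1, or fibronectin, which cells lay down before collagen, was not called. Its controls had 10.68, 11.12, 10.76, 10.53 and 10.50 log2 CPM, and the treated mice 9.88 to 11.30 (median 10.67). The treated mice spread over a wider range than the controls on both sides. The log2 fold change was -0.07 (95% interval -0.56 to 0.42, adjusted p = 0.828 by limma), and that interval includes the change seen in Col4a1. Tnc, a tenascin of injured tissue, had 0.41 ± 0.23 and was not called (adjusted p = 0.178 by limma).

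Small leucine-rich proteoglycans coat collagen fibrils and limit their growth, and the 3 in this set of genes were lower. Of 5 others among the further genes of matrix biology, Prelp was higher and Fmod, Ogn, Aspn and Podn were not called (log2 fold changes of -0.22, -0.11, -0.34 and 0.15). Dcn, or decorin, had 11.11, 11.13, 11.40, 11.21 and 11.06 log2 CPM in the HFD control mice and 10.48 to 10.99 (median 10.92) in the IMC-treated mice. The groups did not overlap. Dcn fell by 0.32 ± 0.10 on the log2 scale (0.798-fold, adjusted p = 0.0223 by limma, exact permutation p = 0.00216), and without HFD mouse 3, its highest control, the adjusted p was 0.0643. Lum (lumican) averaged 9.12 ± 0.19 log2 CPM (SD) in the controls and 8.80 ± 0.15 in the treated mice, a log2 fold change of -0.32 ± 0.09 (adjusted p = 0.0144 by limma). Bgn (biglycan) averaged 10.16 ± 0.26 and 9.75 ± 0.15, a log2 fold change of -0.41 ± 0.11 (adjusted p = 0.0107 by limma). Lum and Bgn kept their calls under every other test, scaling and filter and without any 1 mouse, while in both the highest IMC-treated mouse lay above the lowest control.

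Elastic fibres are built from elastin on a scaffold of fibrillin, with fibulins and emilins bound to it. Of these 8 genes 3 were lower and 0 higher by limma, and 0 were higher at an unadjusted p under 0.05, with voom or in the adjusted exact test. Fbln7 had 5.52, 5.18, 5.83, 5.68 and 5.15 log2 CPM in the HFD control mice and 4.44 to 5.17 (median 4.75) in the IMC-treated mice. IMC mouse 3 alone reached into the control range. Fbln7 had the lowest log2 fold change of the 58 genes, at -0.72 ± 0.14 (0.607-fold, adjusted p = 0.00172 by limma). From averages of 7.10 ± 0.14 and 7.16 ± 0.12 log2 CPM (SD) in the controls, Fbln1 fell by 0.63 ± 0.13 with no overlap (adjusted p = 0.00218) and Emilin2 fell by 0.42 ± 0.13 (adjusted p = 0.0195 by limma). The rest of the elastic fibre genes were not called, with 0.06 ± 0.12 for Eln, -0.11 ± 0.25 for Fbn1, 0.00 ± 0.09 for Fbln2, -0.02 ± 0.07 for Fbln5 and -0.15 ± 0.07 for Emilin1. Of the exon bases of Fbn1, 20.3% overlap another annotated gene on the opposite strand.

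Thrombospondins are secreted regulators of adhesion, of vessel growth and, for Thbs1, of latent TGF-beta. Thbs3 averaged 5.78 ± 0.10 log2 CPM (SD) in the controls and 5.37 ± 0.17 in the treated mice, and it fell by 0.41 ± 0.08 with no overlap between the groups (adjusted p = 0.00143 by limma). Thbs1 had 0.39 ± 0.20 and Thbs2 0.16 ± 0.14, and neither was called.

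**Figure D4:**
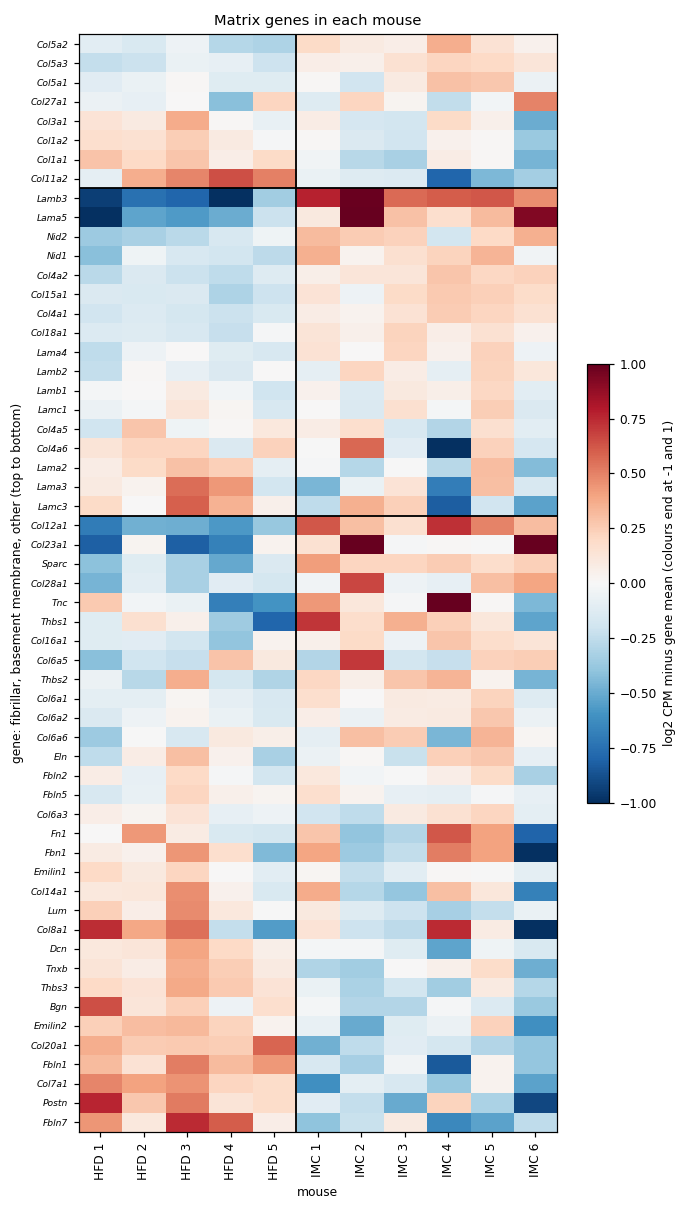
Level of 57 of the 58 matrix genes (rows) in the 11 mice (columns), as log2 CPM minus the mean of the gene over all mice, with colours ending at -1 and 1 and lines between the 2 groups of mice and between the fibrillar, basement membrane and other genes. Lamb3, Lama5 and Col12a1 are blue in the controls and red in the treated mice, Postn and Fbln7 are mostly the reverse, and IMC mouse 6 is among the darkest blue for Fbn1 and Col8a1.

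Levels can be set against each other between genes only per length. On that scale the leading matrix genes of HFD control mice were Sparc, at 1479 ± 173 CPM per kilobase of exon (SD), Dcn at 1201 ± 115 and Col3a1 at 901 ± 108. Bgn followed at 479 ± 91.3, then Col1a2 at 334 ± 22.1, Col4a1 at 294 ± 5.99 and Col6a1 at 275 ± 12.9. Bgn and Col1a2 stood further apart than their spread, while Col4a1 and Col6a1 were close neighbours. In the IMC-treated mice the first 3 kept their order, at 2164 ± 132, 962.5 ± 118 and 792 ± 129. Col4a1, at 368 ± 20.8, then stood beside Bgn at 357 ± 37.9 within their spread, and both lay above Col1a2 at 285 ± 30.7. Lum, Col1a1, Postn, Col4a2 and Fn1 lay between 201 and 228.3 in the controls and were not apart from each other beyond their spread, whereas in the treated mice Col4a2 was at 268.5 ± 15.2 and Postn at 133 ± 34.1.

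Ratios of 2 genes were compared within each mouse, for 16 pairs with both genes listed, by a two-sided exact permutation test adjusted over the pairs. The pairs share a trimer, a promoter or a role, and not all of them join the same trimer. In 9 pairs the ratio differed between the groups, 4 higher and 5 lower with IMC. The ratios are built from the same levels as the gene calls above and do not stand apart from those calls. Pairs of other genes were not compared. The log2 ratio of Lama3 to Lamb3 ran from -1.01 to 0.44 in the HFD control mice and from -2.47 to -1.50 in the IMC-treated mice, a difference of means of -1.81 with no overlap (exact adjusted p = 0.0173). Among alpha chains relative to the common gamma chain Lamc1, Lama5 was higher by 0.997 (exact adjusted p = 0.0173) and Lama4 by 0.18 (exact adjusted p = 0.026), and Lama2 fell by 0.30 (exact adjusted p = 0.0231).

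The ratio of Col1a1 to Col1a2 fell by 0.14 in the IMC-treated mice and that of Col3a1 to Col1a1 was higher by 0.18 (exact adjusted p = 0.0385 for each). Col4a5 against Col4a1 fell by 0.38 and Col6a3 against Col6a1 fell by 0.19, each with the same adjusted value. In the other 7 pairs the difference did not pass the test. These differences were -0.05 for Col4a1 to Col4a2 (exact adjusted p = 0.132), 0.02 for Col6a1 to Col6a2, 0.02 for Lamb1 to Lamc1, 0.11 for Lamb2 to Lamb1, 0.10 for Col15a1 to Col18a1 and -0.03 for Nid1 to Nid2, and -0.18 for Col5a1 to Col5a2 (exact adjusted p = 0.052). With 1 mouse fewer the smallest exact p is larger, and the count of pairs past the threshold was 5 without HFD mouse 1, 2, 3 or 5, 3 without IMC mouse 1, 2 or 3, and 6 without IMC mouse 4. The ratios of Lama3 to Lamb3, Lama5 to Lamc1 and Lama2 to Lamc1 passed the test without each mouse in turn.

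**Figure D5:**
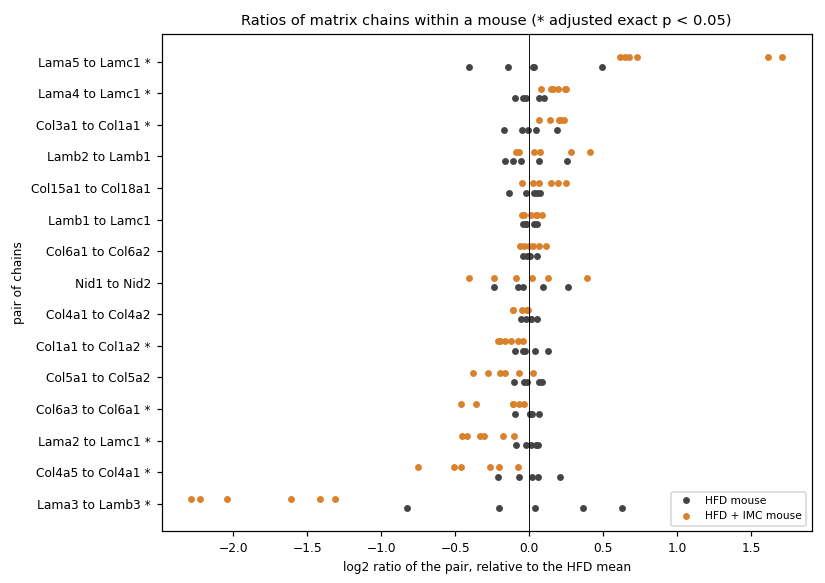
Log2 ratio of 15 of the 16 pairs of matrix genes (y axis) in each mouse, drawn relative to the mean of the HFD control mice (x axis), with controls in grey, IMC-treated mice in orange and a star for pairs with an exact adjusted p under 0.05. The orange points of Lama3 to Lamb3 lie to the left of all grey points, those of Lama5 to Lamc1 lie to the right, and the points of Lamb1 to Lamc1 and Col6a1 to Col6a2 mix near 0.

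Neighbouring matrix genes did not always share a call, as a few pairs show. Col3a1 and Col5a2 lie 24625 bases apart on chromosome 1 (GRCm38.p6, chr1:45311538-45349706 and chr1:45374331-45503282) on opposite strands, and only Col5a2 was called, higher. Dcn and Lum, 47338 bases apart on chromosome 10, were both lower. Col4a1 and Col4a2, which overlap at their starts on chromosome 8, were both higher. Lama5, which was higher, and Col20a1, which was lower, lie 757419 bases apart on chromosome 2.

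Other genes of matrix biology were counted in 4 lists. Of 30 listed genes for collagen processing and crosslinking, 7 were higher and 10 lower with IMC. Lox, the oxidase that crosslinks collagen and elastin, was higher by 0.82 ± 0.09 (adjusted p = 5.1e-05 by limma), and Tgm2, a transglutaminase, by 0.47 ± 0.06 (adjusted p = 7.88e-05 by limma). Pcolce, which enhances the trimming of procollagen, fell by 0.53 ± 0.09 (adjusted p = 0.00055 by limma). Of 27 matrix receptors, 6 were higher and 10 lower. Itga6 and Itga7, integrin chains that bind laminin, were higher by 0.54 ± 0.06 (adjusted p = 3.5e-05) and 0.96 ± 0.11 (adjusted p = 4.1e-05 by limma), while Cd44, the receptor for hyaluronan, fell by 0.83 ± 0.13 (adjusted p = 0.000442 by limma).

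Of 22 further basement membrane and elastic fibre proteins, 5 were higher and 3 lower, and the lower count was 5 without IMC mouse 5. Smoc1, a basement membrane relative of Sparc, was higher by 0.99 ± 0.13, Prelp, a proteoglycan that anchors basement membranes to collagen, by 0.98 ± 0.09, and Ltbp3, which binds latent TGF-beta, by 0.57 ± 0.10, with no overlap for any of them. Of 15 genes for TGF-beta and matrix regulation, 2 were higher and 4 lower. Tgfb1, the ligand, fell by 0.47 ± 0.07 (adjusted p = 0.000401 by limma). Acta2, smooth muscle actin, was higher by 0.71 ± 0.13 (adjusted p = 0.00122 by limma) and is also one of the pericyte and smooth muscle markers. The shares of genes called in these lists, 56.7%, 59.3%, 36.4% and 40%, stand beside the 40.9% of all listed genes.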

How the data were processed

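Gonadal WAT from 5 HFD control and 6 IMC-treated mice was profiled by directional mRNA sequencing, with 1 library per mouse grouped by its sample label. The authors trimmed reads with Trim Galore, checked them with FastQC, aligned them to mm10 with STAR and UCSC transcripts, and counted them per gene. The authors then removed low transcripts, scaled by the upper quartile in edgeR and deposited log2 CPM for 12787 genes. Per the file headers, the authors also deposited a log2 fold change, a mean log2 CPM, a likelihood-ratio score and p-value and FDR columns, and none of these was used. The strand setting of the count was not given in the sources used here, so reads of overlapping genes may be shared.

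The log2 CPM values were fitted on group alone with limma 3.58.1 (lmFit, eBayes with trend) in R 4.3.3, and p was adjusted by Benjamini-Hochberg across the 12787 genes. For single values and chain ratios, a two-sided exact permutation test ran through all 462 splits of the mice and can give no p below 0.00216. CPM values moved in whole-read steps (100% whole within 0.05 reads), which gave the depth and the reads for alternatives. Fits to these reads took their error from the spread between mice, since reads are not independent molecules. Alternatives were voom, other scalings, an added constant of 2 reads, a filter at a mean of 3 log2 CPM, no trend, no overlap required, and leaving out each mouse. Fits were tested on simulated data in which far fewer genes changed than were called here, so the simulation does not match this setting. Coordinates came from RefSeq (GRCm38.p6) and exon lengths and overlaps from GENCODE vM21.

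Values in every mouse are given for 23 genes: in each of the 3 subsets the 3 called genes with the largest and the 3 with the smallest log2 fold change, the 2 most abundant, and Lamb3, Col1a1, Col3a1, Col4a1, Col6a3, Col15a1, Sparc and Fn1. In other lists the 3 genes with the smallest p could be named. Some results that enter these counts are not reported here by name and were not drawn. The genes, lists and tests were chosen with earlier results of these data known. Tables and figures were made with Python 3.11.15, numpy 2.4.6, pandas 2.3.3 and matplotlib 3.10.9.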

Additional observations from a re-analysis of the deposited data

Results flagged for a closer look

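Of 46 groups checked (23 genes in 2 groups of mice), 3 held a mouse far from the others by Dixon's criterion, and chance gives about 1 in 20. Dcn stood at 10.48 log2 CPM in IMC mouse 4, where the other treated mice ran from 10.85 to 10.99. Nid2 stood at 6.67 log2 CPM in the same mouse, against 7.05 to 7.21 in the others. Sparc stood at 12.69 log2 CPM in IMC mouse 1, above the 12.45 to 12.52 of the others. The calls of Nid2, Sparc and Dcn held without those mice.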

How the results depend on the processing

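Of the 30 matrix genes called, 25 kept their call in every refit that included them. Refits were other tests, scalings and filters, and each mouse left out. Col20a1, Col11a2 and Col7a1 are among the 25, but the filter at 3 log2 CPM removed them and so did not test them. Another 5 lost their call in some refit (Col23a1, Col28a1, Dcn, Tnxb and Col1a2, with values given above), and 0 changed sign. Of the 28 not called, 7 were called in some alternative. Requiring no overlap between the groups removed 13 of the 30 calls and kept 17, of which 15 also passed every refit that included them. It left 5 matrix genes lower, with 0 fibrillar and 5 others lower and 3 others higher, and in the lists 3 higher and 5 lower for collagen processing, 3 and 3 for receptors, 0 lower for further basement membrane and elastic fibre proteins, and 1 higher and 2 lower for TGF-beta. The filter at 3 log2 CPM left 11 matrix genes lower and 3 other genes higher, since it removes low genes. Total-count scaling gave 5 lower further basement membrane and elastic fibre proteins, for which the cause was not tested. Leaving out each mouse gave 0 to 1 basement membrane genes lower, 3 to 7 others higher, 2 to 5 further basement membrane and elastic fibre proteins lower, and 3 to 9 pairs of chains past the threshold. Small log2 differences without a call changed sign for Fbln2 under total-count scaling (-0.031) and on leaving out 1 mouse, where they ran from -0.045 to 0.066 for Fbln2, -0.114 to 0.0060 for Col4a5, -0.0080 to 0.073 for Lamc1, -0.015 to 0.141 for Eln, -0.065 to 0.029 for Fbln5, -0.079 to 0.015 for Col6a3, -0.235 to 0.082 for Fbn1, -0.201 to 0.083 for Fn1, -0.119 to 0.041 for the ratio of Nid1 to Nid2 and -0.0016 to 0.033 for that of Col6a1 to Col6a2. The median log2 fold change of all genes was -0.06 under total-count and -0.02 under median-of-ratios scaling. No paired analysis was possible because the sample labels number the 11 libraries in 1 series across both groups, and the mouse numbers used here only name samples. Depth limits the lowest genes, down to the 26 reads of Col11a2.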

Other observations

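Within the IMC-treated group, mice 2 and 6 stood apart from the other 4 in Lama5 and Col23a1. Lama5 was at 6.75 and 6.66 log2 CPM in these mice and at 5.83 to 6.05 in the others. Col23a1 was at 3.90 and 3.96 against 2.88 to 3.04. These genes were chosen after their values were seen. Among the controls, Col23a1 was likewise high in HFD mice 2 and 5, at 2.92 in each.

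IMC mouse 6 had the lowest level of any mouse for Col3a1 (11.68 log2 CPM), Fn1 (9.88), Fbn1 (8.28), Col8a1 (4.33) and Postn (8.14). IMC mouse 4 had the highest level of any mouse for Tnc (5.90 log2 CPM), Fn1 (11.30) and Fbn1 (9.80), and the lowest for Col4a6 (2.64), Lamc3 (3.64) and Fbln1 (5.92). Collagen processing genes were split within families: Loxl4 was higher with IMC (0.37 ± 0.09) while Loxl1, Loxl2 and Loxl3 were lower (-0.35 ± 0.13, -0.41 ± 0.15 and -0.38 ± 0.07). These too were picked from the values, and no cause was tested.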
